A study of Mus musculus with 22 samples.

Results

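A rod photoreceptor taken from the adult mouse retina was compared across all genes with the 2 photoreceptors taken at the day of birth (P0), named H1 and E1 in the labels. The 3 cells were chosen by their labels alone, out of 22 single retinal cells in the series, and each was profiled on its own Affymetrix 430 2.0 array. The other 19 cells are ganglion and amacrine cells and serve here only to show which genes the photoreceptors shared with them. The P0 cells came from CD1 mice, were labelled retinal photoreceptor without a choice between rod and cone, and carried no treatment or transgene in their labels. For the adult rod the labels used here name neither a strain nor an age. Each cell was picked by pipette after papain dissociation, and its cDNA was amplified by 35 cycles of PCR. Cells were given their type after profiling, so genes that mark photoreceptors are no independent check of the type. No animal is named for any cell, so H1 and E1 may share one. With 1 adult cell and 2 newborn cells there is no test and no p-value, and every difference below describes these cells.

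Rods turn light into an electrical signal in the outer segment. Rhodopsin activates the G protein transducin, transducin activates the phosphodiesterase PDE6, and the fall in cyclic GMP closes cation channels, while calcium sensors, arrestin and other regulators end the response. In the mouse most rods are born around birth under the transcription factors Otx2, Crx and Nrl, and they build their outer segments and ribbon synapses over the following weeks. Both P0 cells therefore belong to the stage at which rods are made, before outer segments form.

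Values are MAS5 signals, which the authors scaled within each array. A gene is called held by a cell at a signal of 1000 or more, and signals under 200 were raised to that floor before log2 was taken. A log2 difference against a cell at the floor therefore depends on the floor. The 3 arrays differed in shape. Among 18194 genes the adult rod held 2474 (13.6%), H1 3031 (16.7%) and E1 2211 (12.2%), but in the adult 401 genes exceeded 100000 against 0 in either P0 cell and 0 to 30 in the other 19 cells. Only 124 adult genes lay between 5000 and 20000, against 1345 in H1 and 1370 in E1. The median adult signal over all probe sets was 192.1, against 49.9 in H1 and 51.5 in E1. The top 100 probe sets took 27.7% of the adult signal, 12.6% of that of H1 and 15.2% of that of E1. Across genes the Spearman correlation was 0.333 between H1 and E1, 0.116 between the adult and H1 and 0.115 between the adult and E1, a description in which genes are not independent replicates. Between the adult and the 19 ganglion and amacrine cells it ranged from 0.042 to 0.136 with a median of 0.095, a range that takes in both photoreceptor values.

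**Figure D1:**
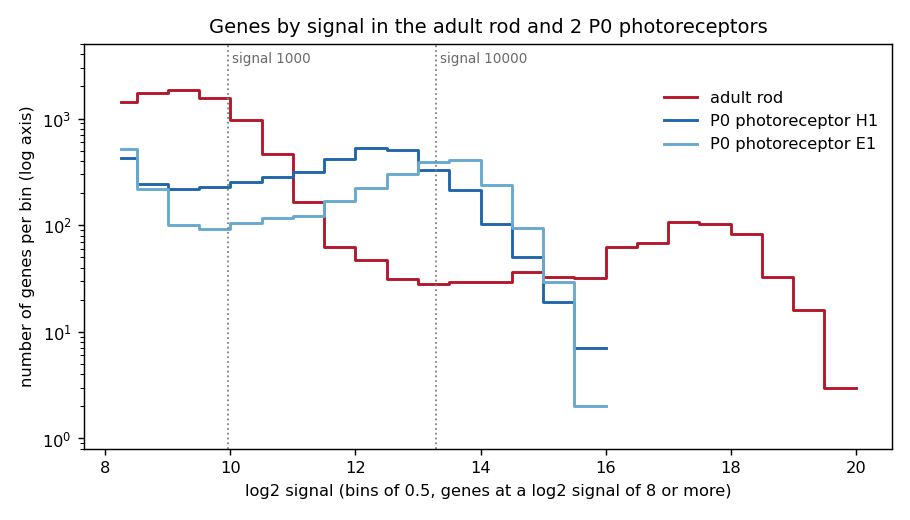
Number of genes (y, log axis) per bin of 0.5 in log2 signal (x) for the adult rod (red) and P0 photoreceptors H1 and E1 (blues), with dotted lines at signals of 1000 and 10000. The adult distribution falls away above 1000, is thin between 5000 and 20000, where it has 124 genes, and has a separate mode above, while both P0 cells have their bright genes in that middle range.

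The adult values thus fell into a bright mode and a dim tail. Of the 2474 genes the adult held, 652 (3.58% of all genes) reached 10000 and 1822 (73.6% of those held) lay between 1000 and 10000. Of the bright 652, 63.3% were held by at least 1 P0 cell, and of the 1822 in the tail 19.5% were, against 22.8% of all genes. The tail was therefore shared with the newborn cells about as often as any gene, and adult genes are described below mainly by whether they reached 10000. The 300 genes held by all 3 cells served as the measure of the shift between the arrays: their median log2 difference, adult minus the mean of the P0 cells, was 2.66 (6.33-fold), or 2.91 against H1 and 2.26 against E1. Of the 300, 206 reached 10000 in the adult and 94 lay in its tail, so this median spans both and is not that of the bright genes alone. A signal difference below 2.66 is thus smaller than that of the typical shared gene, and whether this shift is more RNA per cell or the array cannot be told apart. Each comparison is also given by the position of a gene within its own array, with 1 as the brightest of 18194.

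Of the 20 brightest genes of the adult cell, 9 are on the phototransduction, outer segment or visual cycle lists used here and 11 are not. The 9 are called photoreceptor genes below. Gnat1, the rod transducin alpha subunit, was the brightest gene of the array, with a signal of 993531 in the adult, 5640 in H1 and 122 in E1. Rbp3, the retinoid-binding protein of the matrix around photoreceptors, followed with 792746 in the adult, 33122 in H1 and 35287 in E1. Gnb1, the transducin beta subunit, had 790566 in the adult, 18809 in H1 and 210 in E1. It is counted among the 9, although all 19 ganglion and amacrine cells held it too. The adult exceeded both newborn cells in all 3 genes, and E1 was near or below the floor for the transducin subunits while H1 held them. The photoreceptor genes among the 20 also included Guca1b and Guca1a, activators of guanylate cyclase, Sag, the rod arrestin, Pdc, or phosducin, Aipl1, a chaperone needed to make PDE6, and Pde6b, a catalytic subunit of PDE6. Beside them stood general genes such as Gapdh (646818), the mitochondrial ND5 (630124), the ribosomal Rpl7 (598724), the proteasome subunit Psmb4 (556694) and the chaperone Hspa8 (548641). The remaining ones were Cpe, carboxypeptidase E (621073), Qars, a tRNA synthetase (618026), Rlim, a ubiquitin ligase (602975), Frmd4b, a FERM domain protein (579294), Adipor1, the adiponectin receptor (539062), and Pttg1, or securin (538670). Signals of different genes come from different probes and from an amplified cDNA, so this order is one of signals and not of transcript numbers. Of the 20 genes, 14 had several probe sets, and in 11 of these at least 2 reached 10000 in the adult.

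**Figure D2:**
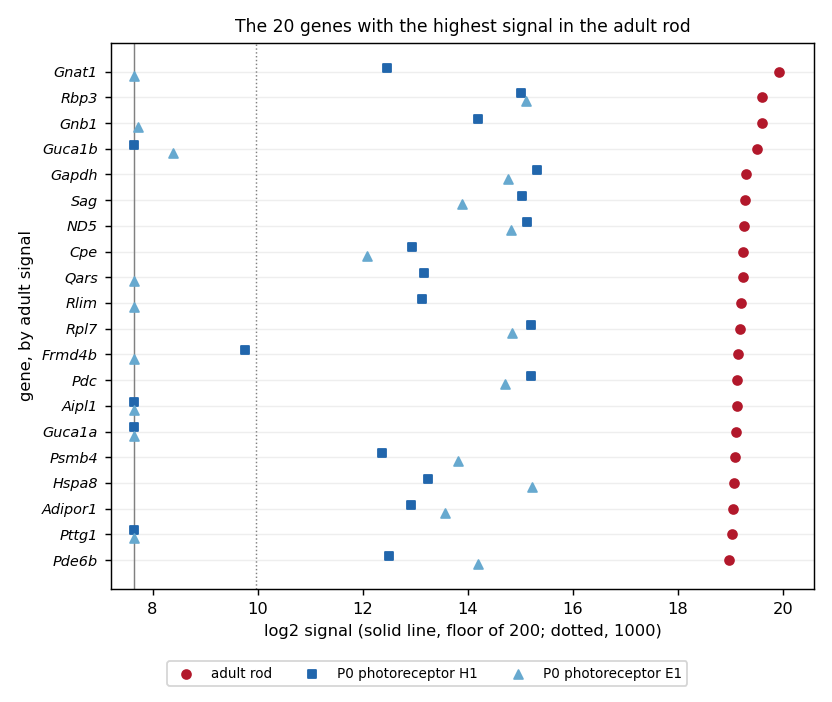
Log2 signal (x) of the 20 genes with the highest adult signal (y, in that order) in the adult rod (red circles), H1 (squares) and E1 (triangles), with the floor of 200 as a solid line and 1000 as a dotted line. All adult points lie to the right of both P0 points, and for Aipl1, Guca1a and Pttg1 both P0 points lie on the floor.

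The 20 genes differed in whether they were already bright at birth. Rbp3 was 2nd brightest in the adult, 23rd in H1 and 24th in E1, and Pdc was 13th, 13th and 76th. Sag was 6th in the adult, 22nd in H1 and 447th in E1. These 3 genes thus stood among the brightest of the newborn arrays too, apart from Sag in E1, and their log2 differences of 4.54, 4.17 and 4.82 became 0.95, 0.48 and 1.43 after quantile normalization over the 22 arrays. Aipl1, by contrast, had 569238 in the adult, 84 in H1 and 114 in E1. Guca1a had 562913 in the adult, 102 in H1 and 38 in E1. Both P0 cells were below the floor for these 2 genes, and the differences, 11.47 and 11.46 against the floor, remained 8.63 and 8.61 after quantile normalization. For Rbp3, 1 of 2 probe sets differed by less than 1 between the stages.

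The 250 bases before the start of these 4 genes are shown because Rbp3 and Sag were held at both stages and Aipl1 and Guca1a in the adult cell alone, and because all 4 carry GGATTA letters; Rbp3, Sag and Aipl1 also carry the second motif, and Guca1a does not. Capitals mark TAATCC or its reverse complement GGATTA, the core letters of the site that Crx binds, and TGCTGA or TCAGCA, letters found in the site that Nrl binds; the motifs do not overlap. The sequences are from RefSeq on GRCm38.p6, 5′ to 3′ on the strand of the gene: Rbp3 at chr14:33953753-33954002 (plus strand), Sag at chr1:87803430-87803679 (plus), Aipl1 at chr11:72037510-72037759 (minus) and Guca1a at chr17:47400607-47400856 (minus).
Rbp3: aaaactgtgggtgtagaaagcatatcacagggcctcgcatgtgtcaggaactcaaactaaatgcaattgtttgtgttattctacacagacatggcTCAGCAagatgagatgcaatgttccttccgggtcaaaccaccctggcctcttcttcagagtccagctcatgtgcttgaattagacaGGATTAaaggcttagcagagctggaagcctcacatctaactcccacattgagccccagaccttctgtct
Sag: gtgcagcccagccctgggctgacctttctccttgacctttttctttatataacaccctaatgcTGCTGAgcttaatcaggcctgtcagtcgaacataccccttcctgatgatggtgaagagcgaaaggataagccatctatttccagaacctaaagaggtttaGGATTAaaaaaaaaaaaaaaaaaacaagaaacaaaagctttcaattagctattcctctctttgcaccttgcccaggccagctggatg
Aipl1: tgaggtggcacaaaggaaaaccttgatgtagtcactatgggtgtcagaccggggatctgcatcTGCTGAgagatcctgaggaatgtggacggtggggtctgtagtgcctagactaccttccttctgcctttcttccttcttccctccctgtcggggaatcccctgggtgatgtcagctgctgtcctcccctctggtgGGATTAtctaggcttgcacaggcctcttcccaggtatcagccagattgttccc
Guca1a: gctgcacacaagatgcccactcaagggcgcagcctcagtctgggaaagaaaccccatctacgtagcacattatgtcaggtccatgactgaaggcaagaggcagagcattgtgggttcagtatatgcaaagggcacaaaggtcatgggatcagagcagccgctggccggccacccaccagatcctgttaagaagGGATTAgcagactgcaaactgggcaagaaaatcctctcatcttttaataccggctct
The GGATTA letters began 69 bases before the start in Rbp3, 87 in Sag, 53 in Aipl1 and 57 in Guca1a. Within 250 bases upstream, on either strand, TAATCC was present in 7 of the 15 rod phototransduction genes that have a promoter in the table (46.7%), against 5.51% of 14453 measured genes and 6.38% of all 27025 promoters. TGCTGA was present in 3 of the 15 (20%), against 14.4% and 15.8%. These are matches of letters, and the 4 genes were chosen after their letters were seen.

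Of the 23 genes listed for rod phototransduction 21 were measured; rhodopsin is not analysed here. The adult rod held 16 of the 21, all at 10000 or more, while H1 held 11 and E1 held 5 (all genes, 13.6%, 16.7% and 12.2%). In 15 of the 21 the adult lay 4-fold or more above both P0 cells, in a comparison where 13.8% of all genes did (3.2% of all genes with an adult signal of 10000 or more), and no member lay 4-fold below both, against 4.24% of all genes. The median difference was 7.71 over the 21 members (5.16 against H1 and 9.10 against E1) and 0 over all genes. Once each array was divided by the median of its shared genes, 10 of 21 members stayed 4-fold above both P0 cells, against 1.92% of all genes, with a median of 4.66. After quantile normalization 8 of 21 did, against 10.9% of all genes, with a median of 4.50, and none lay 4-fold below both, against 4.8% of all genes. By position, 16 members were among the top 600 genes of the adult, 6 of H1 and 4 of E1.

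The members fell into 3 groups by their newborn values. In the cascade itself, 6 members were held by the adult and H1 but not E1, beginning with Gnat1 and Gnb1. Pde6g, the inhibitory subunit of PDE6, had 441573 in the adult, 12362 in H1 and 144 in E1. Cngb1, a subunit of the cyclic GMP-gated channel, had 363091 in the adult, 14959 in H1 and 29 in E1, and Cnga1, its partner, 194172, 13983 and 91. Rgs9bp, the anchor of the transducin GTPase complex, had 161786, 2883 and 73. In this group the P0 cells differed from each other by more than 4 on the log2 scale in each gene but Rgs9bp, a spread as wide as many of the differences between stages: the P0 mean of Pde6g was 10.62 ± 4.21 (SD of log2 signal, n = 2 cells).

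A further 6 members were held by the adult alone (all genes, 9.38%). Besides Guca1a these were Guca1b with 740952 in the adult, 149 in H1 and 337 in E1, and Rcvrn, recoverin, the calcium sensor of rhodopsin kinase, with 439030, 822 and 70. Pde6a, the other catalytic subunit of rod PDE6, had 358397 in the adult, 45 in H1 and 9 in E1. Gngt1, the transducin gamma subunit, had 109427, 36 and 46, and Slc24a1, the rod sodium, calcium and potassium exchanger, 87727, 82 and 14. The 6 genes comprise the 3 calcium sensors and the exchanger together with 1 subunit each of transducin and PDE6. For Pde6a, Gngt1 and Slc24a1 both P0 cells were below the floor, while Pde6b, the partner of Pde6a, was held by all 3 cells at 514284, 5778 and 18851. Of the 2 probe sets of Guca1b 1 differed by less than 1.

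Held by all 3 cells were Pde6b, Sag (638732, 33614 and 15118), Pdc (572339, 37940 and 26671) and Unc119, a lipid-binding carrier of transducin, with 64271 in the adult, 3130 in H1 and 40172 in E1. Unc119 alone of the 16 was not 4-fold above both, and its difference of 2.52 was -0.38 when scaled to the shared genes. Of the 5 members the adult did not hold, Pde6d was held by E1 (7195) and Gnb5, the beta subunit of the GTPase complex, by H1 (8095). Gucy2e, a guanylate cyclase, Grk1, rhodopsin kinase, and Rgs9, the GTPase-activating protein, were held by no cell, at 118, 44 and 133 in the adult. All 5 were below the floor in the adult, although the products of the last 3 belong to the same cascade.

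Of 7 measured genes of the visual cycle and the matrix the adult held 3 (all genes, 13.6%), and 4 were held by no cell (all genes, 12338 of 18194). Abca4, the retinoid transporter of disc rims, had 392967 in the adult, 344 in H1 and 162 in E1, and Rdh12, a retinol dehydrogenase of the inner segment, 62739, 63 and 102. Rbp3 alone of the 7 measured members was held by a P0 cell. Among the members held by no cell was Impg1, a matrix proteoglycan (898, 134 and 134), although 1 of its 2 probe sets reached 1000 in the adult. The median difference of 2.17 was 0.95 after quantile normalization and 0 scaled to the shared genes.

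Outer segment and cilium genes were mixed. Of 29 measured members the adult held 13, 10 of them at 10000 or more, H1 held 20 and E1 held 7 (all genes, 13.6%, 16.7% and 12.2%). In signal 10 lay 4-fold above both P0 cells and 2 lay 4-fold below both (all genes, 13.8% and 4.24%). After quantile normalization 7 and 3 did (all genes, 10.9% and 4.8%), and scaled to the shared genes 3 and 2 (all genes, 1.92% and 5.29%), and the median of 1.16 turned to -0.01 and -0.19. Prom1, a protein of nascent discs, had 480025 in the adult, 14643 in H1 and 17081 in E1. Rom1, a disc rim protein, had 333535, 28763 and 23150, and Cdhr1, a cadherin at the base of the discs, 213008, 31367 and 33778. These 3 were bright at both stages, and the difference of Cdhr1 turned from 2.71 to -0.92 after quantile normalization. Rp1l1 (316324 in the adult, 3165 in H1 and 11 in E1), Rp1 (169974, 3416 and 7) and Crb1 (83003, 3020 and 93) were held by the adult and H1. Rp1 and Rp1l1 are microtubule proteins of the axoneme, and Crb1 is a polarity protein. Prph2, the disc rim partner of Rom1, was only in the adult's dim tail (1382, 13 and 5).

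The 2 members below both P0 cells were Rd3 and Rpgrip1. Rd3, an inhibitor of guanylate cyclase, had 44 in the adult, 6231 in H1 and 15113 in E1, and Rpgrip1, a protein of the connecting cilium, 604, 17726 and 20189. The adult lay below both newborn cells in each, with log2 differences of -5.60 and -4.97 in signal and of -5.68 and -7.16 after quantile normalization. Of the 2 probe sets of Rd3 1 differed by less than 1. Several further cilium genes were held by H1 alone, among them Rpgr (48, 11471 and 774), Cetn2, or centrin 2 (213, 12815 and 33), Bbs4 (140, 12859 and 118) and Ttc8 (14, 10374 and 3), the last pair being subunits of the BBSome.

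Over the 14 measured transcription factors of photoreceptors the median difference was 1.39, against 7.71 over the phototransduction genes, and 5 lay 4-fold above both P0 cells and 1 below both (all genes, 13.8% and 4.24%). The counts were 1 and 1 after quantile normalization (all genes, 10.9% and 4.8%) and 0 and 2 scaled to the shared genes (all genes, 1.92% and 5.29%), where the medians were 0 and -0.62. Crx had 324718 in the adult, 27164 in H1 and 38339 in E1, and Nrl, which directs the rod fate, 405003, 12550 and 26769. The adult signals exceeded both P0 signals, with differences of 3.33 for Crx and 4.47 for Nrl against the 2.66 of shared genes, bright and dim together. By position, however, Crx was 77th in the adult, 48th in H1 and 16th in E1, and Nrl 42nd, 341st and 74th. The direction of Crx turned to -0.39 after quantile normalization and to -1.34 with the mean over its 2 probe sets, which disagree, while that of Nrl was 0.97 after quantile normalization. Neurod1, a basic helix-loop-helix factor that photoreceptors keep, had 72217, 18965 and 27967, and its difference of 1.65 turned to -1.27. Samd11, a photoreceptor regulator with a SAM domain, had 80457, 28208 and 31049, and its 1.44 turned to -1.62. Mef2d, a MADS-box factor, had 170256 in the adult, 1746 in H1 and 14422 in E1; it lay above both cells under both scalings (2.57 and 2.19), but 2 of its 3 probe sets differed by less than 1.

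Otx2 was the opposite case. This homeobox factor, which acts upstream of Crx, had 31 in the adult, 10262 in H1 and 25552 in E1. The adult lay below the floor and both P0 cells were bright, a difference of -6.34 in signal and -6.92 after quantile normalization, from a single probe set. Prdm1, which restrains the bipolar fate in young photoreceptors, had 387 in the adult, 78 in H1 and 12515 in E1, so the newborn cells disagreed. Rorb had 1433, 7905 and 3140, and Rax 2627, 273 and 6674; the adult values of both lay in the dim tail. Of the 14 measured factors 6 were held by all 3 cells, 2 by the adult alone, both below 10000, and 1, Otx2, by both P0 cells alone. Among all 18194 genes these counts were 300, 1706 and 792.

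**Figure D3:**
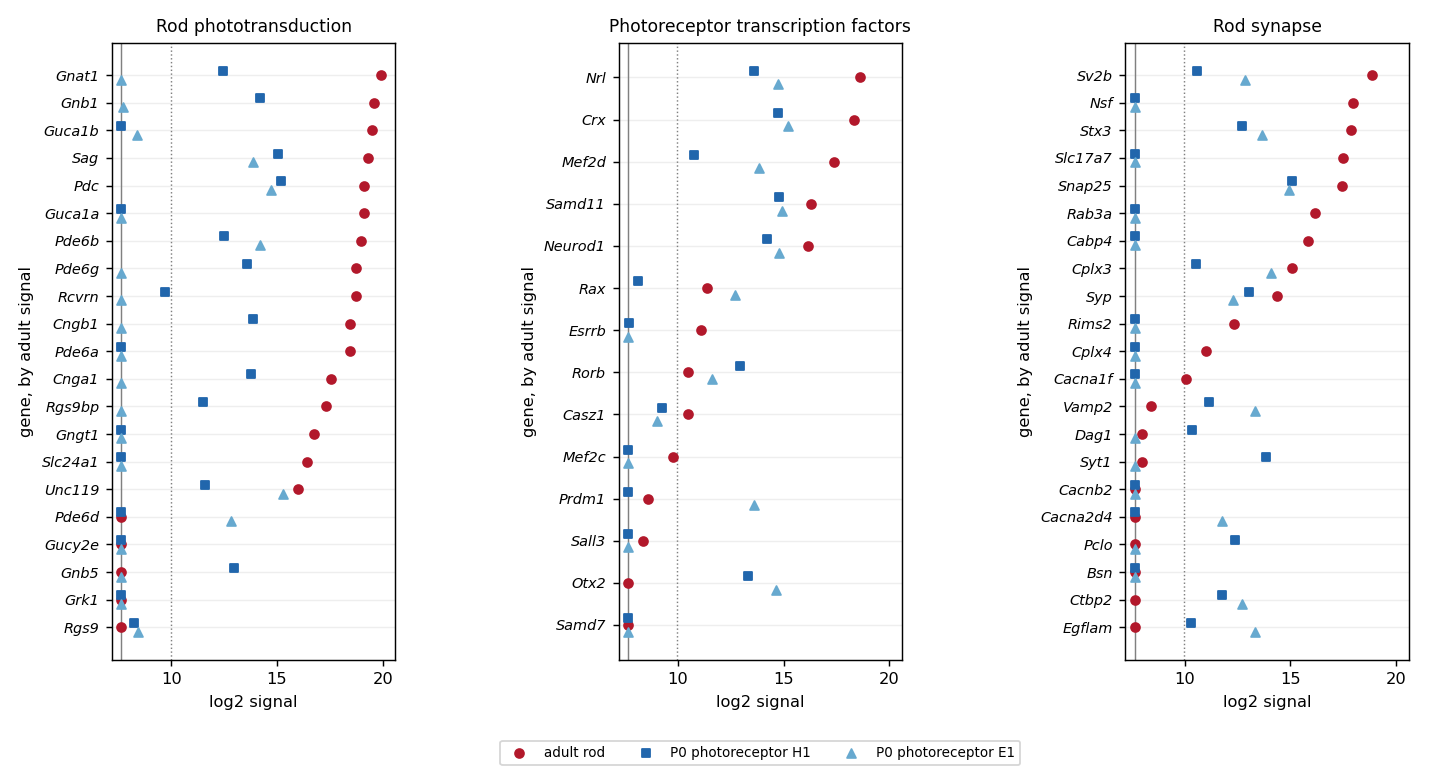
Log2 signal (x) of the measured genes of rod phototransduction, photoreceptor transcription factors and the rod synapse (y, by adult signal) in the adult rod (red circles), H1 (squares) and E1 (triangles); solid line, floor of 200; dotted line, 1000. The 16 phototransduction genes held in the adult lie far right of most newborn points, Crx, Neurod1 and Samd11 are bright in all 3 cells, and Otx2 is at the floor in the adult only.

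At the synapse the adult held genes of glutamate release that were below the floor in both newborn cells. Slc17a7, the vesicular glutamate transporter of rods, had 186080 in the adult, 71 in H1 and 196 in E1. Cabp4, a calcium-binding protein that tunes the release channel, had 58208, 8 and 22, and Rab3a, a vesicle GTPase, 72861, 13 and 97. Nsf, the ATPase that recycles SNARE complexes, had 252597, 13 and 32, with 1 of its 4 probe sets opposite. All 4 genes were at the floor at birth and in the bright mode of the adult. Sv2b, a vesicle glycoprotein (476836, 1515 and 7439), Stx3, the syntaxin of ribbon synapses (237370, 6746 and 13045), and Snap25, its SNARE partner (178765, 34463 and 31520), were held by all 3 cells. Sv2b and Stx3 stayed above after both scalings, while Snap25 turned from 2.44 to -1.16 after quantile normalization.

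Other synaptic genes were lower in the adult. Ctbp2, whose locus also encodes the ribbon protein Ribeye, had 147 in the adult, 3446 in H1 and 6625 in E1. Vamp2, a vesicle SNARE, had 342, 2274 and 10341, and Egflam, or pikachurin, which links the rod to bipolar dendrites, 51, 1246 and 10196. The adult lay below both P0 cells in these 3 genes. Bsn, or bassoon, was below the floor in all 3 cells, and Pclo, or piccolo, was held by H1 alone (5293). In all, 10 of the 21 measured synapse genes lay 4-fold above both P0 cells and 3 below both (all genes, 13.8% and 4.24%), with a median difference of 2.42. After quantile normalization the counts were 8 and 3 (all genes, 10.9% and 4.8%) with a median of 0.92, and scaled to the shared genes 5 and 3 (all genes, 1.92% and 5.29%) with a median of 0.

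Of 8 measured genes for channels, pumps and carriers the adult held 7, 4 of them at 10000 or more, H1 held 3 and E1 held 2 (all genes, 13.6%, 16.7% and 12.2%). In signal 6 lay 4-fold above both P0 cells (13.8% of all genes), or 5 after quantile normalization (10.9%) and 2 scaled to the shared genes (1.92%). Slc6a6, the taurine transporter, had 291411 in the adult, 7 in H1 and 7 in E1, with 1 of 4 probe sets opposite. Clcn3, an endosomal chloride transporter, had 239983, 4798 and 2692, and Kcnv2, a modifying potassium channel subunit of photoreceptors, 13062, 5 and 669. Atp1b2, the sodium pump subunit of the inner segment, was level at 14407, 13076 and 13224, a difference of 0.13. Slc6a6 and Kcnv2 were held by the adult alone, and Atp1b2 lay below the shift of shared genes and turned to -0.60 after quantile normalization.

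Of 22 measured genes of glycolysis, which photoreceptors run at a high rate, and creatine kinase, 10 lay 4-fold above both P0 cells and 1, Slc2a1, below both (all genes, 13.8% and 4.24%). After quantile normalization 5 and 1 did (all genes, 10.9% and 4.8%), and scaled to the shared genes 4 and 1 (all genes, 1.92% and 5.29%). The median difference of 1.55 lay below the shift of shared genes, and was 0.14 after quantile normalization and 0 scaled to the shared genes. Hk1, the first enzyme of the pathway, had 181188 in the adult, 10 in H1 and 74 in E1, and Aldoc, an aldolase, 128309, 24 and 137. Tpi1, an isomerase, had 313471, 8519 and 632, and Pgk1, a kinase, 181330, 1057 and 11528. The adult was above both cells in all 4, and Hk1 and Aldoc were below the floor at birth. Bsg, or basigin, the partner of lactate carriers, had 163506, 3803 and 93, and Slc16a1, such a carrier, 108890, 1537 and 7. Ldha, lactate dehydrogenase A, was bright in all 3 cells (341711, 50646 and 61416), and its 2.62 turned to -1.12 after quantile normalization. Slc2a1, the glucose transporter, ran the other way with 551 in the adult, 30408 in H1 and 12961 in E1.

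Genes that every cell uses had no common direction. Of 82 measured genes of oxidative phosphorylation, 25 lay 4-fold above both P0 cells and 13 below both (all genes, 13.8% and 4.24%), with a median difference of 0.09. The balance turned with the scaling, to 16 above and 14 below after quantile normalization (all genes, 10.9% and 4.8%) and 10 above and 19 below scaled to the shared genes (all genes, 1.92% and 5.29%), with a median of -0.76. Ndufa13 (144499 in the adult, 862 in H1 and 206 in E1) and Atp5k (34870, 248 and 96) were among the first, and Atp5pb (7, 10883 and 18731) and Ndufs3 (55, 8803 and 19524) among the second, although these are subunits of the same complexes. Of 50 cytosolic ribosomal protein genes 30 were held by all 3 cells (all genes, 300 of 18194). The median difference of the 50 was 2.14 and turned to -0.02 after quantile normalization and to -0.04 scaled to the shared genes. Rps20 (292328, 3390 and 14944) was above both newborn cells, whereas Rplp2 (210, 2770 and 38031) was near the floor in the adult. Of 15 housekeeping genes the adult was 4-fold above both cells in 6 and below both in 3 (all genes, 13.8% and 4.24%). It was above in 0 and below in 4 after quantile normalization (all genes, 10.9% and 4.8%) and scaled to the shared genes (all genes, 1.92% and 5.29%). The median of the 15 turned from 1.42 to -0.97 after quantile normalization and -0.87 scaled to the shared genes. The 3 below both in signal were Ywhaz (62, 29162 and 10865), Gnas (72, 18223 and 27791) and Cfl1 (1147, 27814 and 36037). For Gnas 2 of 5 probe sets were opposite. These 3 genes were thus outside the bright mode of the adult array. Whether a low adult signal stands for a low transcript level was not tested.

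Across all genes, 1706 (9.38% of 18194) were held by the adult rod and neither P0 cell, and 86.0% of these lay below 10000 in the adult. The 239 at 10000 or more were 1.31% of all genes. Requiring both P0 cells to be below the floor left 1086 genes (5.97%), of which 177 reached 10000. By position, 1433 genes (7.88%) were in the top 2000 of the adult array alone and 413 (2.27%) in its top 600 alone. The count thus depended mostly on the dim tail: 355 genes had an adult signal of 900 to 1000 and 287 one of 1000 to 1100, in both cases with neither P0 cell at 1000. The total of genes 4-fold above or below both P0 cells was split 2507 to 772 in signal, 1988 to 873 after quantile normalization and 349 to 963 (5.29% of all genes) once scaled to the shared genes, so the balance of directions over all genes turned with the scaling.

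The brightest genes of the adult that were below the floor in both newborn cells included, besides Aipl1, Guca1a and Pde6a, several outside phototransduction. Pttg1, the securin that holds back chromatid separation, had 538670 in the adult, 95 in H1 and 60 in E1, and 3 of 3 probe sets had this direction. Cdkn2c, an inhibitor of cyclin-dependent kinases, had 362641, 23 and 137. Vtn, the matrix protein vitronectin, had 379933, 104 and 19 with 2 of 2 probe sets in the same direction, and Ccdc113, a coiled-coil protein of cilia, 392836, 45 and 83. Each was bright in the adult and at the floor at birth, and Vtn, Cdkn2c and Ccdc113 were held by none of the other 19 cells. Slc16a6, a carrier of the monocarboxylate family (401132, 13 and 9), Gpbp1, a promoter-binding protein (408815, 3 and 9), Eprs, a tRNA synthetase (372170, 49 and 65), Prmt9, an arginine methyltransferase (360112, 109 and 122), and Stk25, a kinase (358506, 79 and 173), completed the 12, and of these Stk25 was held by 12 and Gpbp1 by 10 of the other cells.

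**Figure D4:**
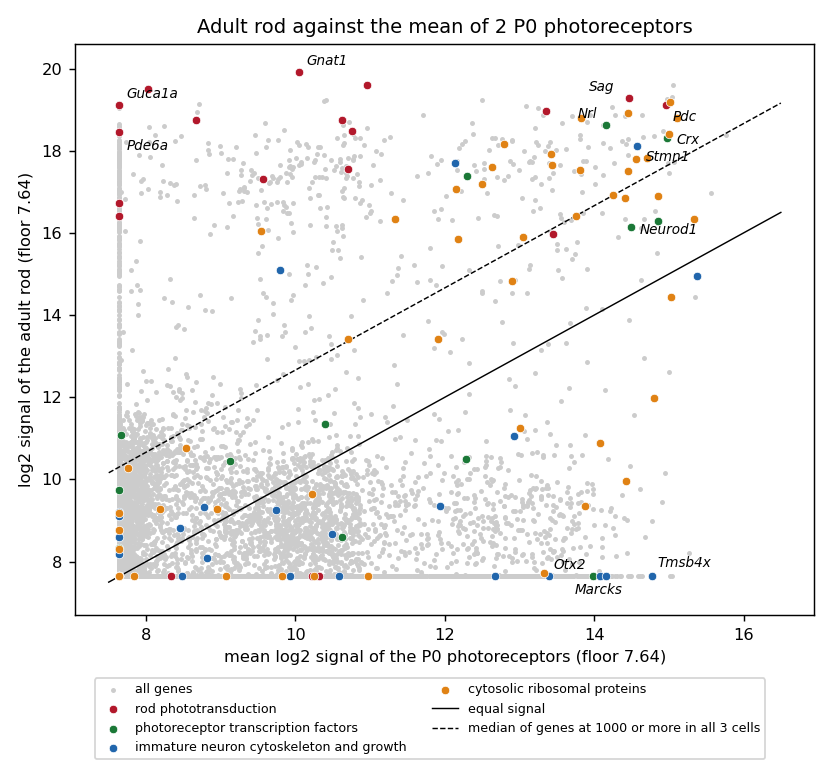
Log2 signal of each of 18194 genes in the adult rod (y) against the mean log2 signal of the 2 P0 photoreceptors (x), with 4 gene lists coloured; the solid line is equal signal and the dashed line the median of the genes held by all 3 cells, 2.66 higher. Gnat1, Guca1a and Pde6a stand far above the dashed line, Crx lies just above and Neurod1 below it (Crx falls below equality after quantile normalization), and Otx2, Marcks and Tmsb4x lie at the adult floor.

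In the other direction, 792 genes (4.35%) were held by both P0 cells and not by the adult, 423 of them (2.32%) with an adult value below the floor. By position, 518 (2.85%) were in the top 2000 of both P0 arrays alone and 104 (0.572%) in the top 600 of both alone. H1 alone held 1631 genes and E1 alone 959, so the 1092 genes held by both newborn cells were 36.0% of those of H1 and 49.4% of those of E1. The adult held 27.5% of these 1092. Each newborn cell thus held more genes without the other than with it.

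The 12 brightest newborn genes whose signal was below the floor in the adult had varied roles. Pfn2, an actin-binding profilin, had 43 in the adult, 46352 in H1 and 24501 in E1, and Tmsb4x, an actin-sequestering thymosin, 94, 17542 and 44573. H2az1, the histone variant H2A.Z, had 40, 27649 and 39861, with both probe sets in the same direction. All 3 were below the adult floor and among the top 150 genes of both newborn arrays. They were followed by Naca, Ppp1ca, Ppp1cb, Atp6v0b, Hnrnpab, Gnas, Pnrc1, Cherp and Cct5, with differences from -7.00 to -6.66. Some of these rest on probe sets that disagree: 1 of 7 was opposite for Hnrnpab, with 3 at 1000 or more in the adult, 2 of 5 for Gnas, with 1 at 1000 or more, and 1 of 3 for Pnrc1. These 12 genes were also held by 9 to 19 of the 19 ganglion and amacrine cells, and so they were held at birth and outside photoreceptors alike.

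Of 32 genes of the immature neuronal cytoskeleton and growth the adult held 5, H1 14 and E1 11 (all genes, 13.6%, 16.7% and 12.2%). The adult's share of this list was thus near its share of all genes. In signal 5 lay 4-fold below both P0 cells against 3 above (all genes, 4.24% and 13.8%). After quantile normalization 6 lay below and 2 above (all genes, 4.8% and 10.9%). Marcks, an actin-linked substrate of protein kinase C, had 163 in the adult, 19614 in H1 and 15190 in E1. Ncam1, the neural cell adhesion molecule, had 135, 15320 and 22032, with 1 of 7 probe sets opposite, and Cd24a, a surface protein of young neurons, 77, 19266 and 6083. Dpysl3, a collapsin response mediator, had 87, 5517 and 7690. These were at the floor in the adult and held by both newborn cells, but Stmn1, a tubulin-binding protein of young neurons, was bright in all (282407, 14731 and 40499), and Dpysl2 (213750, 2428 and 8413) was higher in the adult. The difference of Stmn1 turned from 3.53 to -0.16 after quantile normalization. Other members, such as Dcx and Stmn2, were below the floor in all 3 cells, so they gave no contrast between these stages. Insm1, a zinc-finger factor of neurogenesis, had 34 in the adult, 18152 in H1 and 5991 in E1, and Myt1 50, 2519 and 1737. Sox4 (19, 30289 and 85), Pax6 (172, 15313 and 62) and Ccnd1, cyclin D1 (74, 35330 and 216), were held by H1 and not by E1, and Neurod4 (51, 10 and 25970) by E1 alone. For Pax6, however, 3 of 5 probe sets were opposite and 3 reached 1000 in the adult, and for Sox4 7 of 8 differed by less than 1. For Ccnd1 1 of 3 probe sets reached 1000 in the adult. The adult held 4 of 20 neurogenic genes, none at 10000, against 12 in H1 and 6 in E1 (all genes, 13.6%, 16.7% and 12.2%). The median difference of -2.23 was -2.27 after quantile normalization, but it was -2.52 against H1 and 0 against E1. In signal 3 members lay 4-fold above both P0 cells and 3 below both (all genes, 13.8% and 4.24%). The counts were 3 and 3 after quantile normalization (all genes, 10.9% and 4.8%) and 0 and 4 scaled to the shared genes (all genes, 1.92% and 5.29%).

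Chaperones were split as well. Hsp90aa1 had 475663 in the adult, 30375 in H1 and 21561 in E1, while Cct2, a subunit of the chaperonin that folds actin and tubulin, had 1286, 25075 and 20711, and Cct5 was below the adult floor. Of 15 measured chaperone genes the adult held 5, H1 12 and E1 6 (all genes, 13.6%, 16.7% and 12.2%). In signal 4 lay 4-fold above and 2 below both P0 cells (all genes, 13.8% and 4.24%). The balance turned to 1 above and 3 below after quantile normalization (all genes, 10.9% and 4.8%) and scaled to the shared genes (all genes, 1.92% and 5.29%). Hmgn1, a nucleosome-binding protein, had 474057, 17418 and 10180, whereas the histone variant gene H2az1 ran the other way. Btg2, an early response gene that slows division, had 759, 8396 and 6481 and was lower in the adult than in both newborn cells.

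**Figure D5:**
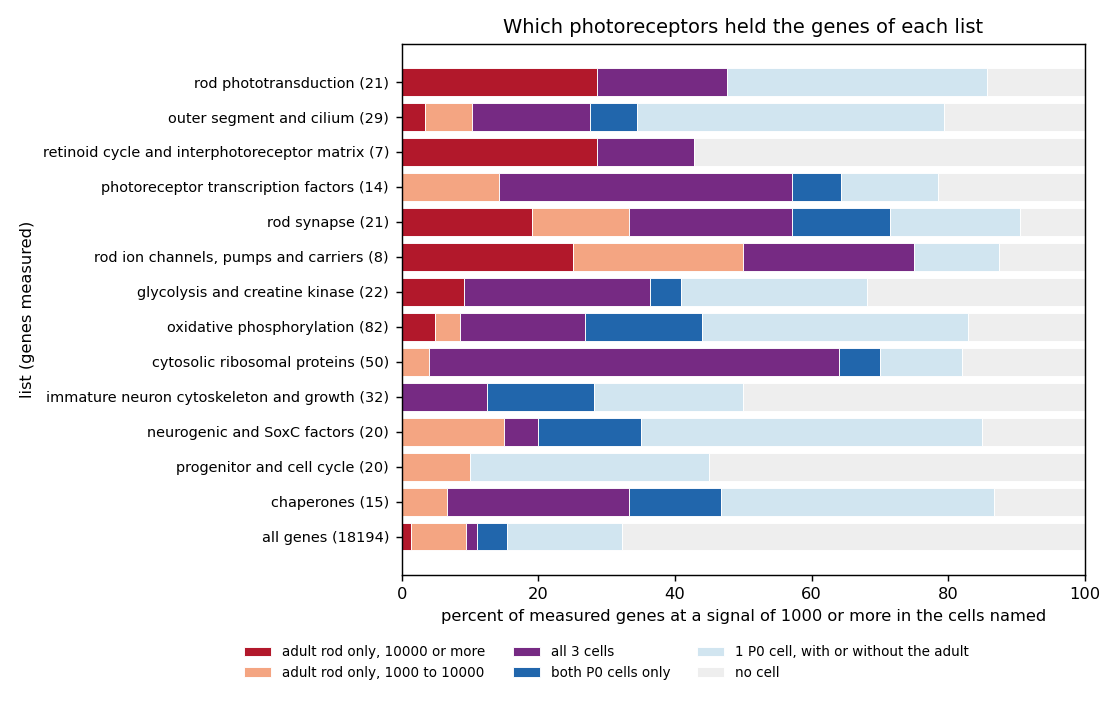
Percent of the measured genes of each list (y, with their number) that were held, at a signal of 1000 or more, by the adult rod alone (dark red, 10000 or more; pale, below), by all 3 cells (purple), by both P0 cells alone (blue), by 1 P0 cell with or without the adult (light blue) or by no cell (grey). Rod phototransduction has 6 of 21 genes held by the adult alone, all at 10000 or more, and the immature neuron list has none.

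Markers of other retinal cells differed between the 3 arrays and were not the same in H1 and E1. H1 held 5 of 12 glial markers (Glul 9896, Rlbp1 8157, Clu 8963, Vim 11382 and Dkk3 13196), 7 of 20 progenitor and cell cycle genes, with Pcna at 18618, and 4 of 14 immediate early genes, with Fos at 37350 and Egr1 at 24809 (all genes in H1, 16.7%). E1 held 0 of 12, 0 of 20 and 1 of 14 of these lists (all genes in E1, 12.2%). E1 held 3 of 11 cone markers, the transducin subunits Gnb3 (33410) and Gngt2 (11711) and the channel subunit Cngb3 (4911). In E1 the cone opsins Opn1sw and Opn1mw, Gnat2, Pde6c and Arr3 were below the floor. H1 held 1 of the 11 cone markers, Gnb3 (5987). E1 also held 3 of 10 bipolar markers, Pcp2 (30957), Lhx4 (12128) and Cabp5 (9001), and the amacrine enzyme Gad1 (15552). Its remaining markers were Sncg (5974), 1 of 11 ganglion markers, and 1 of 12 pigment or lens markers. H1 held no bipolar marker, but 2 of 11 amacrine markers, Meis2 (8623) and Slc6a9 (1372), and 1 of 13 vascular or microglial markers. Over all these cell type lists H1 and E1 each held 9 of 85 markers (10.6%), against 16.7% of all genes in H1 and 12.2% in E1. The adult held 2 of 11 cone markers, 0 of 10 bipolar, 4 of 11 amacrine, 2 of 11 ganglion, 2 of 5 horizontal, 2 of 12 glial, 1 of 12 pigment or lens and 2 of 13 vascular or microglial markers, in all 15 of 85 (17.6%), against 13.6% of all genes. Of the 15 only Clu, or clusterin, reached 10000 (246123, with all 4 probe sets in the same direction), Gad1 had 9039, and the rest lay between 1055 and 3884. Summed over each list, the signals of glial markers were 250252 in the adult, 52562 in H1 and 1023 in E1, those of cone markers 5133, 7570 and 50397, and those of bipolar markers 5255, 745 and 52539. Gnb3 was at 796, Pcp2 at 940, Vim at 38 and Rlbp1 at 34 in the adult. The part of these transcripts in the differences above was not tested.

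Across the series, 46 of 18194 genes reached 10000 in the adult rod and were held by none of the other 21 cells. With 1000 in place of 10000 in the adult the count was 938, so the size of this set depends on the rule. The 46 included Guca1b, Aipl1, Rcvrn, Abca4, Pde6a, Gngt1, Slc24a1, Rdh12, Slc17a7, Cabp4, Kcnv2 and Aldoc, described above. Rtbdn, or retbindin, a riboflavin-binding protein of rods, had 303893 in the adult, 190 in H1 and 228 in E1. Homer1, a postsynaptic scaffold, had 280020, 84 and 193, Gdf5, a growth factor of the BMP family, 252969, 15 and 7, and Aqp1, a water channel, 114518, 13 and 10. All were at or near the floor in both newborn cells. Of the 46 genes 23 had several probe sets, of which 11 had at least 2 at 10000 in the adult. The letters TAATCC were present upstream in 10 of the 34 with a promoter in the table (29.4%) and TGCTGA in 6 (17.6%), against 5.51% and 14.4% of measured genes.

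A further 10 of 18194 genes were held, at 1000 or more, by all 3 photoreceptors and by none of the other 19 cells: Rbp3, Sag, Pdc, Pde6b, Nrl, Cdhr1, Plekhb1, Pitpnm3, Tulp1 and Prcd. Tulp1, a tubby-like protein of the inner segment, had 61484 in the adult, 14403 in H1 and 29211 in E1. Plekhb1, a membrane protein that binds transducin subunits, had 179777, 16261 and 7680, and Pitpnm3, a phosphatidylinositol transfer protein, 71545, 25805 and 24767. All 3 were bright at both stages, and the differences of Tulp1 (1.58) and Pitpnm3 (1.50) turned to -1.16 and -1.38 after quantile normalization. The letters TAATCC were present in 3 of these 10 promoters and TGCTGA in 3, against 5.51% and 14.4% of measured genes.

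Last, 15 of 18194 genes were held by both newborn photoreceptors, were below the floor in the adult rod and were held by none of the other 19 cells. With the adult only required to be under 1000 the count was 29. Frmpd2, a FERM and PDZ domain protein, had 95 in the adult, 13028 in H1 and 24316 in E1, and Ankrd33b, an ankyrin repeat protein, 153, 16891 and 19269. Rd3 and Egflam, both known for their part in photoreceptors, and Tgfb2, a growth factor (124, 2530 and 10818), belonged to them. The other members were Kansl1l, Adssl1, D430042O09Rik, Acy1, Lsg1, Fam102a, Mif4gd, Rpe, Cir1 and Gm11544, with differences from -4.97 to -2.81. The letters TAATCC were present in 2 of 13 promoters of the 15 genes (15.4%) and TGCTGA in 0, against 5.51% and 14.4% of measured genes.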

How the data were processed

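Each retinal cell was hybridised to 1 Affymetrix 430 2.0 array. The deposited values are signal intensity on a linear scale, computed by the authors with MAS5, per the submitters' processing notes and the series' design text; no detection calls or scanner files were used. The values show a scaling to a 2% trimmed mean of 500 on 21 arrays, the 3 photoreceptors among them, and a P0 amacrine cell was brought to it. Precision is limited by the number of arrays.

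Of 45101 probe sets, 34958 had 1 gene symbol in GEO's platform annotation, 932 several and 9211 none, and 34754 matched the RefSeq table through their gene number. Each of 18194 genes was represented by the probe set whose mean was highest across the 22 cells. Signals were raised to a floor of 200 and log2 transformed. A gene at 1000 or more is called held, and a 4-fold call required the adult to lie 4-fold above, or below, both P0 cells. Positions are ranks of signal within an array. H1 and E1 are P0 replicates 1 and 2 as numbered here.

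The members and all 24 gene lists were chosen with earlier results of these data known. Named genes were the 20 brightest of the adult; the 12 brightest of the adult among genes below the floor in both P0 cells; the 12 brightest of the P0 cells held by both and below the floor in the adult; up to 6 members of each list by size of difference; the phototransduction and transcription factor members held by at least 1 cell, and those among these that turned between signal and rank. All other genes named, and the threshold of 10000, were chosen after their values were seen. Scripts used Python 3.11.15, numpy 2.4.6, pandas 2.3.3 and scipy 1.17.1, and were tested on simulated data. Alternatives covered the threshold, the floor, the filter on dim genes, the probe set rule, quantile normalization, ranks and leaving out each P0 cell. Probe sets without a single symbol were left out.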

Additional observations from a re-analysis of the deposited data

How the results depend on the processing

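No paired analysis was possible because the comparison has 1 adult cell and no test. The count of genes held by the adult alone, 1706, was 4286 at a threshold of 500, 526 at 2000 and 568 among genes held by at least 3 of 22 cells. It was 413 with the top 600 genes and 239 with 10000 required in the adult, both chosen after seeing the data. The count held by both P0 cells alone, 792, was 513 with the mean over probe sets, 518 with the top 2000 and 104 with the top 600 genes. Leaving out each P0 cell in turn gave 1866 to 2014 adult genes and 1751 (without H1) to 2423 (without E1) newborn genes, which then need a single cell. The phototransduction median of 7.71 was 4.50 after quantile normalization, 4.50 among genes held by at least 3 cells and 4.66 scaled to the shared genes (chosen after seeing the data), and 5.16 to 9.10 with each P0 cell left out. The median percentile rank difference of these genes, 29.7 points, was 10.5 with the mean over probe sets, 5.42 with the filter, 20.2 without H1 and 1.74 without E1. Percentile ranks of genes tied at the floor sit at a different level in each array. Of 133 genes named by the rules above that lay 4-fold above or below both P0 cells, 3 changed direction: Crx from 3.33 to -0.39 after quantile normalization and to -1.34 with the mean over probe sets, and, scaled to the shared genes, the cone marker Pde6h from 2.50 to -0.56 and the bipolar marker Gng13 from 2.20 to -0.01. Genes named after their values were seen are not in this count. Among them Cdhr1, Ldha, Snap25 and Stmn1 also lay 4-fold above both P0 cells. After quantile normalization they turned to -0.92, -1.12, -1.16 and -0.16.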
